A study of Mus musculus with 12 samples.

Results

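Dio1 encodes type 1 iodothyronine deiodinase, the liver and kidney selenoenzyme that removes iodine from thyroid hormones. It was examined here together with 7 genes of hormone response and supply, Thrsp, Thra, Thrb, Ttr, Me1, Slc16a10 and Klf9. The 8 genes were picked by symbol, and all 8 were found among the 20093 genes listed in both count tables of the series. Dio1 entered because its genotype difference ran in opposite directions in 2 diets, so its values in those comparisons are given as a description with no test. The other 7 were chosen for their roles with earlier results of these data known.

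Thyroid hormone reaches the hepatocyte as thyroxine bound to plasma carriers, crosses the membrane through transporters, and is turned into the active triiodothyronine or into inactive forms by deiodinases. Triiodothyronine binds the nuclear receptors encoded by Thra and Thrb, which pair with retinoid X receptors on DNA. In liver the beta receptor is the main form, and Dio1, Thrsp, Me1 and Klf9 are textbook genes that the hormone raises. Lipogenic genes such as Thrsp and Me1 also answer to insulin and carbohydrate.

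Bulk RNA-seq was read in 12 livers of male C57BL/6N mice, 3 in each of 4 groups named WT chow, HuRHep-/- chow, WT HFCF and HuRHep-/- HFCF. By the labels every mouse carried floxed Elavl1 alleles, the gene of the RNA-binding protein HuR, was 4 to 6 months old when treated, and received an AAV8 virus with the hepatocyte promoter Tbg, which drove Cre in the HuRHep-/- groups and carried no gene (null) in the WT groups. The study's methods describe the chow animals in another way, as a cross of floxed and Alb-Cre mice with littermate controls and at an age of weeks rather than months, and this difference could not be settled. The HFCF diet held 40 kcal% fat, 2% cholesterol and 20 kcal% fructose and was fed for 16 weeks, while no time is given for chow. Each diet has a count table of its own, so diet and table cannot be told apart.

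The targeted gene went against its label. Elavl1 stood at 29.3 to 30.99 CPM (reads of a gene per 1000000 scaled reads of its library) in WT chow and at 38.81 to 42.77 CPM in HuRHep-/- chow. It stood at 23.86 to 26.98 CPM in WT HFCF and at 32.2 to 34.24 CPM in HuRHep-/- HFCF. Its log2 fold change was 0.41 in chow (limma, adjusted p = 0.0219) and 0.38 in HFCF (limma, adjusted p = 0.0327), higher in the groups labelled HuRHep-/- both times. The adjusted p rose above the threshold in 4 of 6 cases on chow when 1 library was left out (0.0725 and 0.0738 without WT replicates 1 and 3, 0.0816 and 0.105 without labelled replicates 1 and 2). On HFCF it did so in 5 of 6 cases (0.0942 and 0.0534 without WT replicates 1 and 2, 0.121, 0.106 and 0.0943 without labelled replicates 1, 2 and 3). The direction could not change in these 12 cases, since the groups do not overlap. Counts cover the whole gene, including exons outside a deleted part, and the exons between the flox sites are not given in the sources used here. The groups are therefore called livers labelled HuRHep-/-. The hepatocyte gene Alb had 40700 to 79600 CPM over all 12 libraries, and the T-cell gene Cd3e at most 0.83 CPM. Totals ran from 30071731 to 35949203 counts per library, and nothing in the labels says whether the 3 libraries of a group were prepared together.

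The promoters of Dio1 and of the 3 genes that the diet comparison called are shown because they are the members the results turn on. Of the 8 genes, 6 had a window in the RefSeq promoter table for GRCm38.p6. Each line holds the 250 bases before the RefSeq start, read 5′ to 3′ along the gene, and capitals mark the nuclear receptor half-site AGGTCA, the CCAAT box, the GC box GGGCGG, the TATA box TATAA and the E-box CACGTG on either strand.
Dio1: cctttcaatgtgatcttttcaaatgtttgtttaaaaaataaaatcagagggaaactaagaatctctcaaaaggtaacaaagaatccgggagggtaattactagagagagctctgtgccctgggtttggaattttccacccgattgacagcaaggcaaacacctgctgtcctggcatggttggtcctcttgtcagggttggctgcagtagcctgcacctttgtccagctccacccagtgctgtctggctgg
Thrsp: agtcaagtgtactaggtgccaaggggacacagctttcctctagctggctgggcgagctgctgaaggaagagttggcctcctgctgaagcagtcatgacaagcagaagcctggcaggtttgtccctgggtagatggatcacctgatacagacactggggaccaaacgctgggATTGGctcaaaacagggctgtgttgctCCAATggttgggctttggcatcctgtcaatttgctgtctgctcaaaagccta
Slc16a10: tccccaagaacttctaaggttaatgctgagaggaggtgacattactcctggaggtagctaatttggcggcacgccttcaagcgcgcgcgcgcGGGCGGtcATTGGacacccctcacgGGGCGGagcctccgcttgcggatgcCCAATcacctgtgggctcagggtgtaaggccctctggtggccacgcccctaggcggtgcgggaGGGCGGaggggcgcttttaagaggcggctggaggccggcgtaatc
Klf9: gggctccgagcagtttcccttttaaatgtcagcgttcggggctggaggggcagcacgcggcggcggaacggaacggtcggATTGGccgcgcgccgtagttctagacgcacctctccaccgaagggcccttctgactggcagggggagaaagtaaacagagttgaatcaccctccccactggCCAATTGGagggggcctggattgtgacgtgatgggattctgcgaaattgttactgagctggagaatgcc
The Dio1 window lies on the minus strand at chr4:107307169-107307418 and held none of the 5 motifs. The Thrsp window, minus strand at chr7:97417551-97417800, held 2 CCAAT boxes, and reaches into the first exon of the longer GENCODE gene model, which begins at position 97417730. The Slc16a10 window, minus strand at chr10:40142255-40142504, held 2 CCAAT boxes and 3 GC boxes, and the Klf9 window, plus strand at chr19:23140976-23141225, held 3 CCAAT boxes. In the Klf9 window 2 of these share bases. Of 32851 promoter windows of this length, 14% held AGGTCA, 33.8% CCAAT, 32.7% GGGCGG, 22.8% TATAA and 6.02% CACGTG. Of the windows not shown, 1 of Thrb (plus strand at chr14:17660710-17660959) held the half-site, and none of the 4 shown did. A match is a run of letters and not a measured binding site.

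Dio1 is on chromosome 4, from 107291465 to 107307169 on the minus strand of GRCm38, with 1970 exon bases. In WT chow its 3 libraries held 3064, 3366 and 3146 reads, or 100.9, 112.6 and 102.9 CPM. In chow livers labelled HuRHep-/- they held 5408, 5818 and 7299 reads, or 156.8, 180.1 and 224.6 CPM. Every labelled HuRHep-/- library on chow thus lay above every WT library, and 29.5% of all genes had groups apart in one direction or the other. The 3 labelled livers were spread more widely than the 3 WT livers, with an SD of 34.4 against 6.26 CPM. On HFCF the order was turned around. The WT livers had 160.8, 167.6 and 164 CPM, and the livers labelled HuRHep-/- had 136, 140 and 109.9 CPM, all below the WT range, on a diet where 36.8% of all genes had groups apart.

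**Figure D1:**
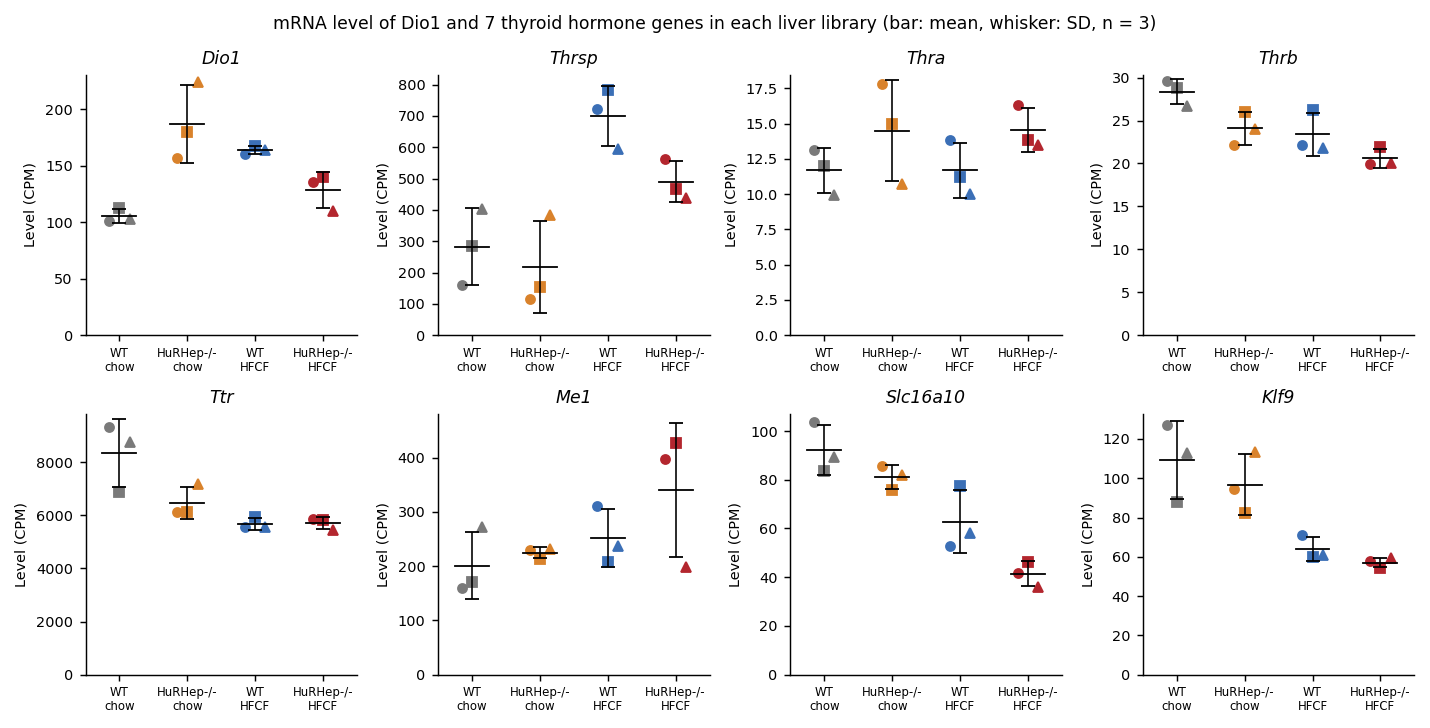
Level of Dio1 and the other 7 genes in each of 12 liver libraries, in CPM on linear axes from 0. Points are libraries (circle, square and triangle for replicates 1, 2 and 3), bars are means and whiskers are SD of 3 libraries, and the Dio1 panel shows labelled livers above WT on chow and below WT on HFCF.

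By group mean the order for Dio1 was HuRHep-/- chow (187.2 ± 34.4 CPM, SD, n = 3), WT HFCF (164.1 ± 3.4), HuRHep-/- HFCF (128.6 ± 16.3) and WT chow (105.5 ± 6.26). HuRHep-/- chow and WT HFCF overlapped, as did HuRHep-/- HFCF and WT chow, while WT HFCF and HuRHep-/- HFCF did not. As a description, the log2 fold change of livers labelled HuRHep-/- against WT was 0.82 (SE 0.125) on chow and -0.38 (SE 0.0978) on HFCF. The difference of both was -1.17 (SE 0.172). With each library left out in turn the values ran from 0.68 to 0.935 on chow, from -0.44 to -0.262 on HFCF and from -1.3 to -1.03 for the difference. Their direction could not change there, since the groups do not overlap, and is no sign of stability.

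The diet differences of Dio1 use the same 4 groups and are no further evidence for this pattern. HFCF minus chow was 0.64 (SE 0.122) on the log2 scale in WT and -0.53 (SE 0.122) in livers labelled HuRHep-/-. Their average did not enter the choice of Dio1, and it was tested. It was 0.05 on the log2 scale (95% interval -0.135 to 0.241, limma, adjusted p = 0.632), in a comparison that called 17.3% of all 14535 genes.

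By genotype on chow 0 of the 7 tested members were called, where a call needed a Benjamini-Hochberg adjusted p up to 0.05, a change of 1.5-fold or more and 10 reads per group. That rule called 2.24% of all genes (1.27% higher and 0.969% lower), and the adjusted p alone was met by 4.23% and by 0 of 7 members. On HFCF 0 of 7 were called against 3.62% of all genes (2.15% higher and 1.47% lower), and the adjusted p alone was met by 0 of 7 members and 6.79% of all genes. The difference between diets called 0 of 7 members and 0 of 14535 genes in limma (0%), with 2086 genes at an unadjusted p under 0.05, and it called 0 genes with voom weights too. Dio1 is among these 14535 genes, though its own value is given without a test. With 3 livers against 3, an exact permutation test of 1 gene cannot go below p = 0.1. The median log2 fold change of the 8 genes, Dio1 included, was -0.17 on chow and -0.19 on HFCF, against medians of 0.00465 and -0.00155 over all genes tested.

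**Figure D2:**
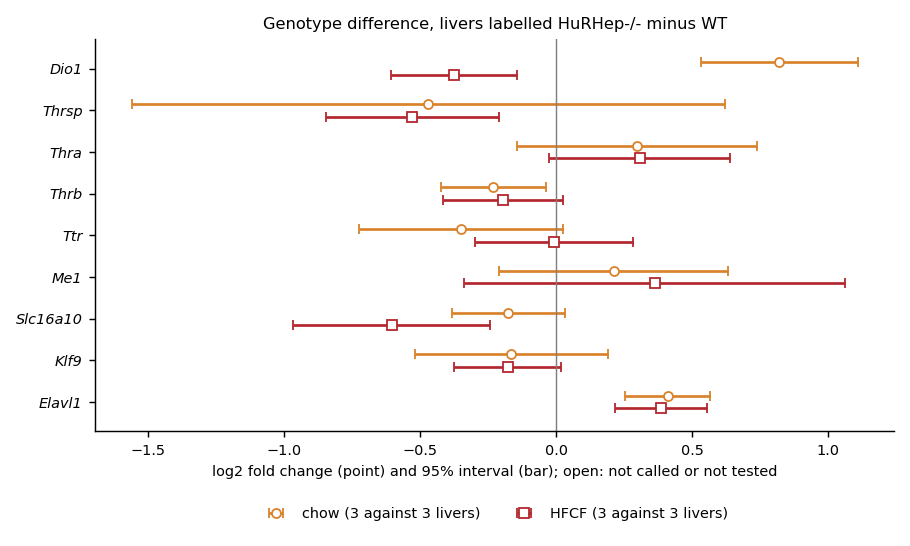
Log2 fold change of livers labelled HuRHep-/- against WT (points) with its 95% interval (bars) for the 8 genes and Elavl1, chow as circles and HFCF as squares, 3 against 3 livers. Dio1, picked for its opposite genotype differences and shown without a test, stands at 0.82 on chow and -0.38 on HFCF. Whether its bars reach 0 is therefore no evidence.

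The receptors were expressed at a low level. Thrb, the beta receptor gene on chromosome 14, had 29.56, 28.83 and 26.74 CPM in WT chow and 22.21, 26.04 and 24.07 CPM in chow livers labelled HuRHep-/-. On HFCF it had 22.18, 26.26 and 21.77 CPM in WT and 19.9, 21.91 and 20.02 CPM in labelled livers. The chow groups did not overlap, as for 29.5% of all genes, but the difference of -0.23 on the log2 scale did not pass the test (limma, adjusted p = 0.154). The difference on HFCF was -0.20 (limma, adjusted p = 0.213), and there the groups overlapped.

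With diet, Thrb differed by -0.28 in WT on the log2 scale (limma, adjusted p = 0.0386) and by -0.22 in livers labelled HuRHep-/- (limma, adjusted p = 0.0651). Averaged over both the difference was -0.25 (limma, adjusted p = 0.0062), which is under the fold that a call needs. The WT value missed the threshold with upper-quartile factors (adjusted p = 0.0619 in limma) and in 7 of 12 cases with 1 library left out. These were WT chow replicates 1, 2 and 3 (0.124, 0.0771 and 0.0517), WT HFCF replicates 1 and 3 (0.121 and 0.135) and HuRHep-/- HFCF replicates 1 and 3 (0.051 and 0.0515), while the average passed in 12 of 12. In labelled livers the adjusted p was 0.0452 without HuRHep-/- chow replicate 1 and 0.0342 without WT HFCF replicate 2. An adjusted p of at most 0.05 without the fold was reached by 24.1%, 38.9% and 49.4% of all genes in these 3 comparisons.

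Thra, the alpha receptor gene on chromosome 11, had 13.14, 11.97 and 9.939 CPM in WT chow and 17.8, 14.99 and 10.74 CPM in chow livers labelled HuRHep-/-. On HFCF the values were 13.86, 11.21 and 10.01 CPM in WT and 16.31, 13.87 and 13.47 CPM in labelled livers. The genotype groups overlapped on both diets, with log2 differences of 0.30 (limma, adjusted p = 0.386) and 0.31 (limma, adjusted p = 0.196). Group means for the diets were 11.68 and 11.69 CPM in WT, and 14.51 and 14.55 CPM in labelled livers. Per kilobase of exon, Thrb had a mean of 2.78 to 3.83 CPM and Thra of 2.53 to 3.15 CPM over the groups. In WT chow Thrb (3.61 to 3.99) lay above Thra (2.15 to 2.85), and in the other groups their ranges overlapped. In HuRHep-/- HFCF the mean of Thra (3.15) lay above that of Thrb (2.78). Exon length here joins all transcripts (7403 bases for Thrb and 4614 for Thra), while their longest transcripts have 6200 and 2452 bases. The order of Thrb and Thra depends on which length is used.

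Thra shares 263 exon bases, 5.7% of its exon length, with Nr1d1 on the opposite strand, the gene of the clock repressor REV-ERB alpha. Nr1d1 had 99.75, 87.2 and 57.54 CPM in WT chow, 111.1, 106.9 and 73.28 in HuRHep-/- chow, 67.74, 57.44 and 29.87 in WT HFCF, and 86.99, 77.81 and 60.07 in HuRHep-/- HFCF. In each of the 4 groups Thra and Nr1d1 were both highest in the library numbered 1 and lowest in the library numbered 3. Same-numbered libraries ranked alike in all 4 groups for 128 of 14535 genes (0.881%), and among the clock genes listed also for Npas2, in another order. The reads were counted by strand according to the study's methods. The part of shared sequence, collection time or handling in this was not tested.

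**Figure D3:**
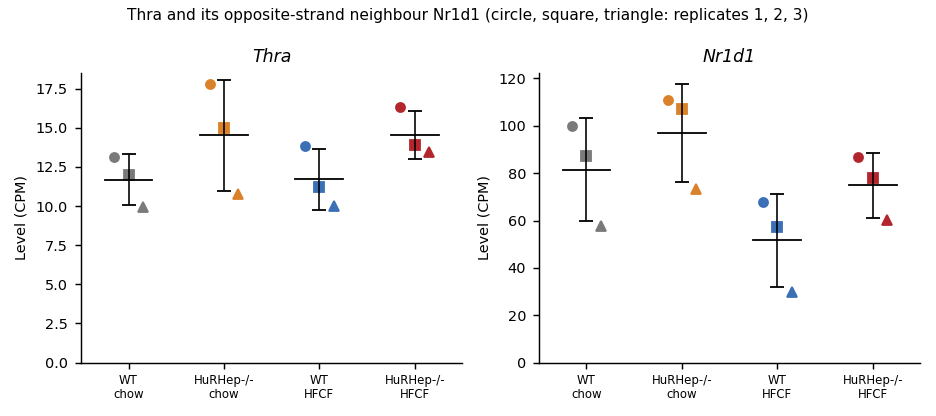
Level of Thra and of Nr1d1 in CPM, on linear axes from 0, for the 12 libraries, with circles, squares and triangles for replicates 1, 2 and 3, bars for means and whiskers for SD of 3 libraries. In all 4 groups the circle is highest and the triangle lowest in both panels.

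Among the partners and cofactors, 0 of 5 receptor genes and partners were called for genotype on either diet, where 2.24% of all genes were called on chow and 3.62% on HFCF. On chow 1 was called without HuRHep-/- chow replicate 3 and in the fit on all 12 libraries. Rxra, the main retinoid X receptor gene of liver, differed by 0.25 on chow (limma, adjusted p = 0.0874) and by 0.01 on HFCF (limma, adjusted p = 0.964). Rxrg rose with diet in WT by 0.91 (limma, adjusted p = 0.00654) and was at 0.03 in labelled livers (limma, adjusted p = 0.905). Of 13 coactivator and corepressor genes none was called for genotype (0 of 13 on chow and on HFCF) or for diet in WT, where 9.38% of all genes were. With the replicate block or without WT chow replicate 2, 1 was called by genotype on chow. For diet in labelled livers 1 was called, against 19.1% of all genes. This was Ppargc1a, the coactivator PGC-1 alpha, which fell by 0.91 on the log2 scale (limma, adjusted p = 0.0241), a call lost without HuRHep-/- chow replicate 1 or 3 or HuRHep-/- HFCF replicate 1.

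Thrsp, which encodes Spot 14, a lipogenic protein that triiodothyronine raises, was the member that differed most between diets. WT chow livers had 158.8, 286 and 402.7 CPM and chow livers labelled HuRHep-/- had 115.2, 153.5 and 384.4 CPM. WT HFCF livers had 720.7, 783.4 and 594.6 CPM and labelled HFCF livers had 563.1, 468.2 and 437.9 CPM. Every HFCF library lay above every chow library, and groups were apart in this way between diets for 37.6% of all genes in WT and 54.6% in labelled livers. The chow groups were widely spread, with a CV of 43.2% in WT and 66.9% in labelled livers.

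Thrsp rose with HFCF by 1.40 on the log2 scale in WT (SE 0.396, limma, adjusted p = 0.0256), or 2.64-fold. It rose by 1.36 in livers labelled HuRHep-/- (SE 0.396, limma, adjusted p = 0.0188), or 2.57-fold. Averaged over genotypes it rose by 1.38 (SE 0.28, limma, adjusted p = 0.00194). In each single genotype the call was lost in 3 of 12 cases when 1 library was left out, each time a library of the groups compared. Libraries of the other genotype do not enter the difference itself, apart from the scaling. In WT this was WT chow replicate 1 (1.03, adjusted p = 0.103), WT HFCF replicate 1 (1.37, adjusted p = 0.0662) or WT HFCF replicate 2 (1.31, adjusted p = 0.0555). In labelled livers it was HuRHep-/- chow replicate 1 (0.999, adjusted p = 0.0724), HuRHep-/- chow replicate 2 (1.21, adjusted p = 0.0627) or HuRHep-/- HFCF replicate 1 (1.26, adjusted p = 0.0615). The average was called in 12 of 12 cases.

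By genotype on HFCF, all 3 labelled livers lay below the 3 WT livers for Thrsp, as the groups did for 36.8% of all genes. The difference was -0.53 (95% interval -0.847 to -0.211, limma, adjusted p = 0.0604, exact permutation p = 0.1). Without WT HFCF replicate 3 it was -0.636 and called (limma, adjusted p = 0.0364). On chow it was -0.47 with an interval of -1.56 to 0.62 (limma, adjusted p = 0.586). The Thrsp and Dio1 levels had a Pearson r of 0.13 over 12 libraries, which share their groups.

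Me1, the NADPH-producing malic enzyme, was not called in any comparison, though for diet in labelled livers and on average this rested on single libraries. It had 160, 170.4 and 272.3 CPM in WT chow, 230.2, 212.6 and 232.3 CPM in HuRHep-/- chow, 310.5, 207.9 and 237.3 CPM in WT HFCF, and 397.1, 426.3 and 198.4 CPM in HuRHep-/- HFCF. The last group ran from 198.4 to 426.3 CPM and overlapped each of the others. Its diet difference was 0.35 in WT (limma, adjusted p = 0.378) and 0.52 in livers labelled HuRHep-/- (limma, adjusted p = 0.152). Without HuRHep-/- HFCF replicate 3, its lowest library there, the second was 0.87 and called (limma, adjusted p = 0.0124). The average over genotypes was 0.43 (limma, adjusted p = 0.0814), and it was 0.609 without the same library (limma, adjusted p = 0.00587) and 0.555 without WT chow replicate 3 (limma, adjusted p = 0.0314). Of the 31-base words of its longest transcript 34.2% also occur in other genes, mostly in the processed pseudogene Gm7049, so its reads are uncertain.

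Klf9, a Krueppel-like transcription factor raised by thyroid hormone and glucocorticoids, moved against Thrsp. It had 126.9, 87.87 and 113.1 CPM in WT chow and 94.64, 82.39 and 113.4 CPM in HuRHep-/- chow. On HFCF it had 70.91, 60.09 and 61.11 CPM in WT and 57.63, 54.32 and 59.29 CPM in labelled livers. Every HFCF library lay below every chow library, and groups were apart by diet for 37.6% of all genes in WT and 54.6% in labelled livers.

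Klf9 fell by 0.76 on the log2 scale with HFCF in WT (SE 0.137, limma, adjusted p = 0.0033) and by 0.75 in livers labelled HuRHep-/- (SE 0.137, limma, adjusted p = 0.00182). Both calls held in 12 of 12 cases with 1 library left out. Its genotype differences of -0.16 on chow (limma, adjusted p = 0.557) and -0.18 on HFCF (limma, adjusted p = 0.2) did not pass. The HFCF groups did not overlap by genotype, as for 36.8% of all genes.

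Slc16a10 encodes MCT10, a transporter of aromatic amino acids and thyroid hormone. It had 103.7, 83.65 and 89.45 CPM in WT chow and 85.65, 75.64 and 82.02 CPM in HuRHep-/- chow. On HFCF it had 52.61, 77.31 and 58.25 CPM in WT and 41.8, 46.2 and 36.04 CPM in labelled livers. Those 3 labelled HFCF livers were the lowest of all 12. Of the WT HFCF livers 1 stood inside the range of chow livers labelled HuRHep-/-, and the others stood below all chow livers.

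With HFCF, Slc16a10 fell by 0.98 on the log2 scale in livers labelled HuRHep-/- (SE 0.137, limma, adjusted p = 0.000501), or 1.97-fold. In WT the difference was -0.57 (SE 0.137, limma, adjusted p = 0.0124), 1.49-fold and just under the fold that a call needs. Without WT chow replicate 1 it was -0.483 (limma, adjusted p = 0.0547), and without WT chow replicate 2 or 3 or WT HFCF replicate 2 it was called, at up to -0.731 (limma, adjusted p = 0.00183). The difference between these 2 diet effects was -0.41 with an interval of -0.831 to 0.018, and it did not pass (limma, adjusted p = 0.368). By genotype on HFCF the difference was -0.60 (95% interval -0.968 to -0.242, limma, adjusted p = 0.0604), and with the spread of all 12 libraries it was -0.589 (limma, adjusted p = 0.0221) and called. On chow it was -0.18 (limma, adjusted p = 0.278).

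**Figure D4:**
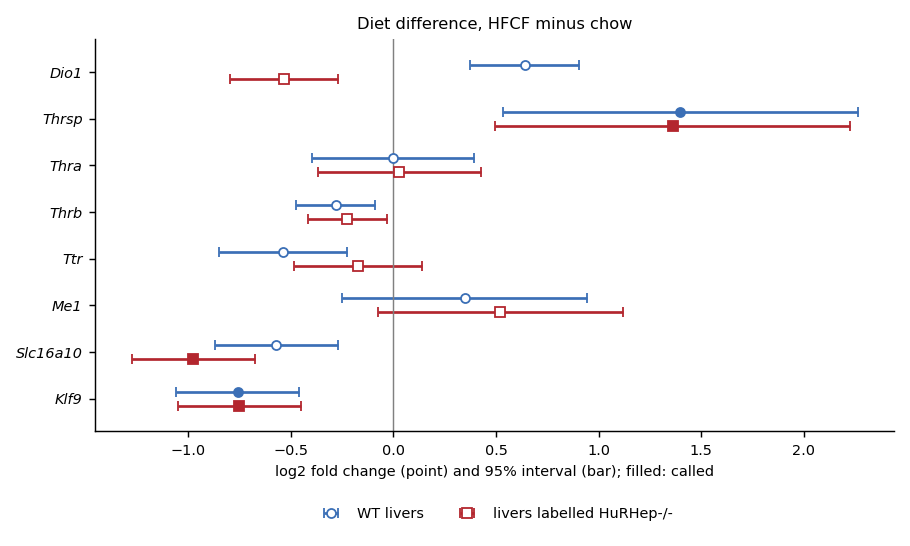
Log2 fold change of HFCF against chow (points) with its 95% interval (bars) for the 8 genes, WT livers as circles and livers labelled HuRHep-/- as squares, filled where called. Thrsp lies near 1.4 in both and Klf9 near -0.75 in both. Slc16a10 is filled at -0.98 in labelled livers and open at -0.57 in WT. Dio1, shown without a test, lies at 0.64 in WT and -0.53 in labelled livers. It was picked on values of these same libraries, so the place of its bars is no evidence of a diet difference.

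Ttr encodes transthyretin, the plasma carrier of thyroxine and retinol-binding protein, and was the most abundant member. It had 9343, 6893 and 8786 CPM in WT chow, 6137, 6113 and 7177 CPM in HuRHep-/- chow, 5569, 5945 and 5554 CPM in WT HFCF, and 5872, 5832 and 5465 CPM in HuRHep-/- HFCF. Both HFCF groups were narrow and lay on top of each other, with a genotype difference of -0.01 (limma, adjusted p = 0.976). On chow the difference was -0.35 (limma, adjusted p = 0.236). Ttr differed by -0.54 with diet in WT (limma, adjusted p = 0.0188), which is 1.45-fold, and by -0.17 in labelled livers (limma, adjusted p = 0.354). The WT value missed the threshold without WT chow replicate 1 (0.0801) or 3 (0.0701) or WT HFCF replicate 1 (0.0524) or 3 (0.0586). Without WT chow replicate 2 it was -0.672 and called (limma, adjusted p = 0.007), and the values ranged from there to -0.453 over all left-out libraries.

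The comparison of diets called 2 of 7 tested members in WT, Thrsp and Klf9, against 9.38% of all genes. It called 3 of 7 in livers labelled HuRHep-/-, with Slc16a10 added, against 19.1% of all genes. By direction, 6.14% of genes were called higher and 3.24% lower in WT, and 14.2% and 4.9% in labelled livers. The average over genotypes also called these 3 members, in a comparison with 13.3% of genes higher and 4.05% lower.

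The fixed lists of the pathway show where other genes stood. Of 10 tested transporters of thyroid hormone (11 listed), 2 were called on chow, where 2.24% of all genes were. Slc7a5, a subunit of the large neutral amino acid transporter, was higher by 0.84 in livers labelled HuRHep-/- (limma, adjusted p = 0.0373), and Slc17a4 was lower, at -0.67 (limma, adjusted p = 0.0232). On HFCF, where 3.62% of all genes were called, 2 were called as well, the organic anion transporter genes Slco1a4 at 1.05 (limma, adjusted p = 0.044) and Slco1b2 at -0.59 (limma, adjusted p = 0.0235). The list medians were 0.00 on chow and -0.06 on HFCF. The chow count was 0 without WT replicate 1 or 3 or labelled replicate 2 and 1 without WT replicate 2 or labelled replicate 1 and with the replicate block. The HFCF count was 0 in 5 of 6 cases with 1 library left out, 3 without WT replicate 3, and 1 with RLE factors, with upper-quartile factors or with at least 10 counts in every library.

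With diet, transporters moved mainly downwards in livers labelled HuRHep-/-, where 5 were called lower and 2 higher, against 4.9% and 14.2% of all genes, with a list median of -0.57 against 0.00 over all genes. Slco1a1 fell by 3.11 on the log2 scale (limma, adjusted p = 0.00137), Slco1a4 fell by 1.16 (limma, adjusted p = 0.00509) and Slc10a1, the bile acid transporter NTCP, fell by 1.02 (limma, adjusted p = 0.000282). Slc17a4 rose by 1.42 (limma, adjusted p = 6.635e-05) and Slc7a8 rose by 1.36 (limma, adjusted p = 0.0038). In WT 1 was higher, Slc7a8 at 1.25 (limma, adjusted p = 0.00949), and 1 lower, Slco1a4 at -1.67 (limma, adjusted p = 0.00152), against 6.14% and 3.24% of all genes. The WT list median also lay below that of all genes, at -0.29 against 0.01.

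Of the deiodinases, Dio1 was the one that passed the filter on low values. Dio2 had 0 to 2 reads and Dio3 had 0 to 27 reads per library, and neither was tested. Among the other enzymes of iodothyronine metabolism, 1 of 5 tested beside Dio1 was called for genotype on each diet, against 2.24% of all genes on chow and 3.62% on HFCF. This was Ugt1a1, which glucuronidates bilirubin and thyroxine, with a log2 fold change of -0.71 on chow (limma, adjusted p = 0.00746) and -0.66 on HFCF (limma, adjusted p = 0.0189). The chow call was lost without labelled replicate 2, and the HFCF call without WT replicate 1 or labelled replicate 1 or 2. Ugt1a1 shares its last exons with other Ugt1a genes, so the split of its reads is uncertain. Iyd, the iodotyrosine deiodinase, was at 0.04 on chow (limma, adjusted p = 0.734) and 0.06 on HFCF (limma, adjusted p = 0.603).

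Dio1 is a selenoprotein, and of 7 genes that make or carry selenoproteins 0 were called for genotype on chow and 0 on HFCF, where 2.24% and 3.62% of all genes were. With diet 0 of 7 were called in WT and 1 in labelled livers, against 9.38% and 19.1% of all genes. Sephs2, selenophosphate synthetase, fell by 0.59 on the log2 scale (limma, adjusted p = 0.000475), and this call was lost without HuRHep-/- chow replicate 3 or HuRHep-/- HFCF replicate 2 or 3. It was also lost with RLE factors, with upper-quartile factors and with at least 10 counts in every library. Sepp1, the plasma selenium carrier, was at 0.19 on chow (limma, adjusted p = 0.358) and -0.05 on HFCF (limma, adjusted p = 0.842) by genotype.

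Of 4 plasma carriers of thyroid hormone, 1 was called with diet in each genotype, against 9.38% of all genes in WT and 19.1% in labelled livers. Serpina7, thyroxine-binding globulin, rose by 1.17 in WT (limma, adjusted p = 0.0226) and by 1.26 in livers labelled HuRHep-/- (limma, adjusted p = 0.0102), while Ttr was not called. The WT count was 0 without WT chow replicate 1 or WT HFCF replicate 1 or 3, and 2 with voom weights or without WT HFCF replicate 2. By genotype 0 of 4 were called on chow and 0 on HFCF, against 2.24% and 3.62% of all genes, and 1 was called on HFCF without WT HFCF replicate 2.

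Of 21 genes beside Dio1 that thyroid hormone is known to raise in liver, 1 was called on chow and 0 on HFCF by genotype, against 2.24% and 3.62% of all genes. Gpd2, mitochondrial glycerol phosphate dehydrogenase, was higher by 0.63 on chow (limma, adjusted p = 0.00708) and at 0.38 on HFCF (limma, adjusted p = 0.0635), and the chow count was 0 without labelled replicate 2 and 2 without WT replicate 2 or with the replicate block. The HFCF count was 1 with the block or without WT replicate 3. With diet in WT 5 rose and 1 fell, where 6.14% of all genes were called higher and 3.24% lower. In labelled livers 8 rose and 2 fell, where 14.2% were called higher and 4.9% lower. The list medians, Dio1 included, were 0.37 in WT against 0.01 over all genes and 0.05 in labelled livers against 0.00. The genes moved both ways within this list. The count called was 4 in place of 6 in WT without WT chow replicate 1, and 5 in place of 10 in labelled livers without HuRHep-/- HFCF replicate 1.

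Hr, a nuclear receptor corepressor, rose with HFCF by 2.39 in WT (limma, adjusted p = 0.00345) and by 2.93 in labelled livers (limma, adjusted p = 0.000683). Pdk4, a brake on pyruvate oxidation, rose by 2.13 in WT (limma, adjusted p = 0.0122) and by 1.76 in labelled livers (limma, adjusted p = 0.0187). Abcg5, a subunit of the sterol export pump, rose by 1.14 (limma, adjusted p = 0.00518) and by 1.04 (limma, adjusted p = 0.0049). Klf9 and, in labelled livers, Ppargc1a were the genes that fell.

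Thrsp belongs to the lipogenic genes, a list that shares Thrsp, Me1, Fasn, Acaca and Mlxipl with the one above. With diet 5 of 13 were called higher in WT and 7 of 13 in labelled livers, and 0 lower in both, against 6.14% and 14.2% of all genes higher. Both counts include Thrsp, and the list medians were 0.58 and 0.72. In WT 2 were called without WT chow replicate 1 or WT HFCF replicate 1. Scd1, stearoyl-CoA desaturase, rose by 1.78 in WT (limma, adjusted p = 0.00193) and by 3.12 in labelled livers (limma, adjusted p = 6.978e-05). Srebf1, the gene of SREBP-1, rose by 1.73 (limma, adjusted p = 0.000647) and by 1.66 (limma, adjusted p = 0.000386). Fasn, fatty acid synthase, rose by 1.35 (limma, adjusted p = 0.0136) and by 1.70 (limma, adjusted p = 0.00252). By genotype 1 of 13 was called on chow, Scd1 at -1.59 (limma, adjusted p = 0.026), and 0 of 13 on HFCF, against 2.24% and 3.62% of all genes. The chow call was lost with the replicate block and without WT replicate 1 or 3 or labelled replicate 1 or 2. The HFCF count was 1 with the block, without WT replicate 3 and in the fit on all 12 libraries.

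Other genes also differed between some of the groups compared for Dio1. In these bulk samples fewer cells of a type and less RNA per cell cannot be told apart. Of 22 acute phase genes, 8 were called higher and 1 lower in chow livers labelled HuRHep-/-, against 1.27% and 0.969% of all genes. The count of 9 was 3 without WT chow replicate 1, 1 without WT chow replicate 3 or HuRHep-/- chow replicate 1, and 0 without HuRHep-/- chow replicate 2. Their summed level was 21410 to 31650 CPM there against 21410 to 23910 CPM in WT chow. On HFCF 1 was higher and 1 lower, against 2.15% and 1.47% of all genes, and the count of 2 was 6 with the replicate block or without WT HFCF replicate 3 and 1 without WT HFCF replicate 1 or any single labelled library. The sums were 16350 to 18410 CPM in labelled livers and 15090 to 18790 CPM in WT. Saa1, serum amyloid A, had a log2 fold change of 4.01 on chow (limma, adjusted p = 0.0211) and 0.68 on HFCF (limma, adjusted p = 0.21), and it has a near-identical copy in Saa2. The part of these genes in the Dio1 pattern was not tested.

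Among cell type markers, the 12 hepatocyte genes summed to 93400 to 113500 CPM in WT chow, 74760 to 84480 in HuRHep-/- chow, 68260 to 73910 in WT HFCF and 59390 to 65020 in HuRHep-/- HFCF. The 13 Kupffer cell and macrophage genes summed to 230.2 to 304.3, 314.5 to 455.3, 360.7 to 641.7 and 633.9 to 853.4 CPM in the same order. The 10 stellate genes ran from 189.7 to 217.1, 149.4 to 225.3, 196.6 to 423.1 and 416.1 to 512.8 CPM, and the 7 cholangiocyte genes from 35.75 to 81.18, 52.48 to 108.2, 39.73 to 88.78 and 134.9 to 244.3 CPM. In labelled livers 10 of 10 stellate, 9 of 13 macrophage and 5 of 6 tested cholangiocyte genes were called higher with diet, against 14.2% of all genes, and the cholangiocyte list's Tff3 was called lower. In WT 7 of 13 macrophage genes were called higher, against 6.14% of all genes. Of 12 hepatocyte genes, 5 were called lower with diet in WT and 4 in labelled livers, against 3.24% and 4.9% of all genes. The 9 endothelial genes stayed between 147.1 and 202 CPM in all libraries. Lymphocyte genes summed to at most 17.35 CPM and neutrophil genes to at most 5.487 CPM, both highest in HuRHep-/- HFCF, and erythroid genes to between 338.4 and 1098 CPM. The hepatocyte sum is mostly Alb, which had 63400 to 79600 CPM in WT chow. The part of cell makeup in the differences was not tested.

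The genes most like Dio1 were ranked by Pearson r of log2 CPM over 12 libraries, among 10184 genes with a mean of at least 100 scaled reads. They were Dpp8 (0.886), Iars2 (0.877), Srpr (0.874), Cib2 (0.872) and Immt (0.856), and the most opposite were Taf6l (-0.845), 0610009B22Rik (-0.818), Rps27rt (-0.803), Zfp369 (-0.794) and Trmt10b (-0.789). Group means of Dpp8 were 19.6 CPM in WT chow, 24.2 in HuRHep-/- chow, 22.3 in WT HFCF and 21.4 in HuRHep-/- HFCF. Those of Rps27rt, a copy of Rps27, were 15.2, 8.79, 6.77 and 10 CPM. These genes were selected out of many for likeness, and the libraries share their groups, so the r values are descriptions. None of the 7 other members was near these values, since their r with Dio1 ran from -0.441 for Ttr to 0.185 for Me1.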

How the data were processed

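The authors deposited raw read counts per gene in 2 tables, 1 for 6 chow livers and 1 for 6 HFCF livers, as whole numbers written with commas between digits, so that the deposited counts were recorded in the unit class other. By the study's methods the reads were aligned in CLC Genomics Workbench to GRCm38.p6 with reverse strand counting. Commas were removed, 0 values were other than whole, and 23 and 27 names turned into dates were restored by identifier.

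Log2 CPM with a pseudocount of 0.5 and TMM factors (trims 0.3 and 0.05) was tested in limma 3.58.1 (R 4.3.3) with a variance trend, since count models were not applied to this unit. Genes were kept where 3 or more libraries reached a CPM worth 10 counts at the median depth and all libraries together held 15. Genotype was fitted per diet on 6 libraries (13526 and 14295 genes), and diet and the difference between diets on 12 (14535 genes). Printed levels use the 12-library scaling. Calls needed a Benjamini-Hochberg adjusted p of at most 0.05, a fold of 1.5 and 10 counts per group. All tests are two-sided, and p-values measure only the spread between these libraries. The labels do not name separate animals, while the study gives 3 mice per group for its RNA-seq of untreated livers. Intervals are 95%. The scripts were tested on simulated data.

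The members and lists were chosen with earlier results of these data known. Named are all members, Elavl1, Nr1d1, up to 6 called genes per list and comparison by fold, and the 5 genes most and least like Dio1. Cd3e, Alb, Rxra, Iyd, Sepp1, Dio2, Dio3 and Npas2 were named outside this rule after their values were seen. Sepp1 (now Selenop) was matched by identifier. Alternatives were RLE and upper-quartile factors, no filter, a stricter filter, a pseudocount of 2, voom weights, a replicate block, no fold limit, a fit on all 12 libraries and leaving out each library. Positions and exon lengths are from GENCODE M21, promoters from RefSeq.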

Additional observations from a re-analysis of the deposited data

Results flagged for a closer look

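Dio1 is the result to look at again, since its genotype difference had opposite signs on the 2 diets. The log2 fold change of livers labelled HuRHep-/- against WT was 0.82 on chow, where all 3 labelled libraries lay above all 3 WT libraries. It was -0.375 on HFCF, where all 3 labelled libraries lay below. Groups were apart in this way, in either direction, for 29.5% of all genes on chow and 36.8% on HFCF. The difference of both was -1.17. No p-value is given for this difference, because Dio1 was chosen for it. No gene of the 14535 in that comparison, which include Dio1, was called in limma. Groups of 3 libraries are too small for a check of single outlying libraries.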

How the results depend on the processing

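Of 803 single-gene tests under an alternative, 726 kept direction and side of the threshold, 28 lost it, 10 gained it and 39 changed sign. The sign changes that came from other than left-out libraries were Ttr by genotype on HFCF (0.0443 with upper-quartile factors, 0.0075 with 10 counts in every library, 0.00849 in the fit on 12 libraries), Klf9 in the difference between diets (-0.00794 without a filter), and Thra with diet in WT (0.0458, 0.0168 and 0.0096 with upper-quartile factors, 10 counts in every library and voom weights) and on average (-0.00166 without a filter). All were near 0, and the cause was not tested. With the adjusted p alone, by construction, 572 genes were called on chow, 971 on HFCF, and 3508, 5649 and 7183 with diet in WT, in labelled livers and on average, and 5 members were called in WT and 5 on average.

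The replicate block called 1 member by genotype on HFCF, Slc16a10 (limma, adjusted p = 0.0285), as did the fit on 12 libraries (1 member, Slc16a10), and under the block Thrsp had an adjusted p of 0.0359, under the fold of a call. Same-numbered libraries correlated at -0.0297, 0.109 and -0.00332 on chow and 0.0878, 0.188 and 0.0866 on HFCF, so not every pair was above 0.1 on either diet, and the design does not say that numbers mark shared animals or days. On HFCF all 3 were positive. The own number was the best match in 1 of 3 chow and 3 of 3 HFCF libraries. Between diets it was also the best match for WT replicate 3 (0.103) and labelled replicate 1 (0.0873). It was not the best match for the other pairs between diets. Whether libraries were paired was not tested. The block moved the HFCF calls from 517 to 764 and the chow calls from 303 to 226. With the block Me1 had an average diet difference of 0.435 (limma, adjusted p = 0.0486).

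Leaving out single libraries moved the counts of all genes called to between 8 and 320 on chow, lowest without HuRHep-/- chow replicate 2, with 110, 79 and 95 without WT chow replicate 1, WT chow replicate 3 and HuRHep-/- chow replicate 1. On HFCF they lay between 28 and 850, with 39 without WT HFCF replicate 1, 850 without WT HFCF replicate 3, and 28, 32 and 98 without HuRHep-/- HFCF replicates 1, 2 and 3. The difference between diets gave 0 to 34 (2 without WT chow replicate 2, 34 without WT HFCF replicate 3), and diet in WT 847 to 1781 (847 without WT chow replicate 1, 874 without WT HFCF replicate 3). Members called ran from 0 to 1 by genotype on HFCF (1, Thrsp, without WT HFCF replicate 3) and from 1 to 4 with diet in WT (1 without WT chow replicate 1 or WT HFCF replicate 1, 4 without WT chow replicate 2). The ranges of values that changed sign were -0.0205 to 0.0293 for Ttr by genotype on HFCF, and in the difference between diets -0.399 to 0.473 for Thrsp, -0.169 to 0.192 for Thra, -0.00244 to 0.143 for Thrb, -0.0679 to 0.521 for Me1 and -0.108 to 0.157 for Klf9. Thra ranged from -0.132 to 0.103 with diet in WT, -0.172 to 0.188 in labelled livers and -0.0875 to 0.0915 on average, and Dio1 on average from -0.01 to 0.123. Depth was alike in all libraries, and Thra, with 304 to 654 reads per library, was the member with the fewest reads.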
